A study of Mus musculus with 71 samples.

Results

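The genes described here are the nuclear-encoded subunits of the oxidative phosphorylation machinery. They were taken from the count tables by symbol alone, as every name built on the stems Nduf (with a subunit letter and a number), Sdh, Uqcr, Cox4 to Cox8 and Atp5. The pattern found 81 of 24222 genes: 36 with complex I names, 4 of complex II, 8 of complex III, 17 of complex IV and 16 of complex V, the ATP synthase. A filter on low counts left 79 of them among 14145 tested genes. Ndufs5, with 1 count over all 9 libraries, and Cox8b, with 2 counts, did not pass it. The tables hold none of the 13 subunits encoded by mitochondrial DNA, so those are not described.

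PolyA RNA was sequenced from mouse embryonic stem (ES) cells of the C57BL/6 strain, grown on gelatin in 2i medium, in 3 libraries per group. The groups were an Ezh1/Ezh2 double knockout (dKO), a line labelled EZH2 rescue that re-expresses wild-type EZH2 (rescue), and wild type (WT). EZH1 and EZH2 are alternative catalytic subunits of PRC2, the Polycomb enzyme that adds methyl groups to lysine 27 of histone H3. Libraries held 12457622 to 36009529 counts, and levels are given as CPM, counts scaled to a common library size with trimmed-mean-of-M-values (TMM) factors. The labels do not say whether a line is 1 clone, or whether replicates come from separate cultures. The p-values therefore reflect the spread among the 3 libraries within a group, pooled over all 9 libraries, and this spread may be technical.

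The libraries carried the labelled genotypes and cell type in part. Ezh1 was at 1.80 to 2.34 CPM in dKO, 2.34 to 3.42 CPM in rescue and 47.9 to 53.4 CPM in WT, with the rescue libraries near the dKO level. Ezh2 counts stood at 191 to 215 CPM in dKO, 549 to 576 CPM in rescue and 308 to 314 CPM in WT. A count over the whole Ezh2 gene does not check a deletion of some of its exons. All 9 markers of naive ES cells were detected, with summed levels of 5957 to 6121 CPM in dKO, 8107 to 8140 CPM in rescue and 7086 to 7298 CPM in WT. Of these markers, 6 fell and 1 rose in dKO against WT. All 6 primitive endoderm markers rose in dKO against WT, with summed levels of 152 to 176 CPM in dKO, 31.9 to 35.8 CPM in rescue and 15.9 to 18.4 CPM in WT. So did all 5 tested of 6 fibroblast markers, at 58.6 to 64.8 CPM in dKO, 14.7 to 15.6 CPM in rescue and 6.70 to 8.39 CPM in WT. The part of such cells in the results below was not tested. Among the libraries, dKO replicate 3 differed more from its own group than any other library did.

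Oxidative phosphorylation passes electrons from NADH and succinate through complexes I to IV to oxygen, and the ATP synthase uses the proton gradient this builds to make ATP. Naive ES cells respire while also running a high rate of glycolysis. Most complex IV subunits are expressed in all tissues, but several have isoforms that are largely restricted to heart and muscle, lung or testis. In mammals, the promoters of many of these genes carry sites for nuclear respiratory factor 1 (NRF1), for ETS-family factors such as GABP, and for YY1.

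The promoters shown here are those of genes to which the results return: Sdha, Uqcrc1, Cox6a1 and Ndufs6, which hold motif matches and were called lower in dKO against WT, and Ndufa13, the only one of the 81 genes with a Suz12 peak within 1 kb. Each line runs 5′ to 3′ on the strand of the gene, from 250 bases before to 50 bases after the start given by RefSeq for GRCm38.p6. The windows are chr13:74350191-74350490, minus strand, for Sdha; chr9:108936398-108936697, plus strand, for Uqcrc1; chr5:115348909-115349208, minus strand, for Cox6a1; chr13:73328433-73328732, minus strand, for Ndufs6; and chr8:69901971-69902270, minus strand, for Ndufa13. Capitals mark matches, on either strand, to the NRF1 motif (GCGC, any base, then TGCGC), the ETS motif (CCGGAAG) or the YY1 motif (AAGATGGC).
Sdha: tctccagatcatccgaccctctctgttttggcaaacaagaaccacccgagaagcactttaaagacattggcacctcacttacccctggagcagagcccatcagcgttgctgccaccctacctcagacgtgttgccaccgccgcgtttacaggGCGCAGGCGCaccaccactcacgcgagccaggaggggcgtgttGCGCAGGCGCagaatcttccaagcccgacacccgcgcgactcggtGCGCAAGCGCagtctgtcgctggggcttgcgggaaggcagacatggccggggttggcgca
Uqcrc1: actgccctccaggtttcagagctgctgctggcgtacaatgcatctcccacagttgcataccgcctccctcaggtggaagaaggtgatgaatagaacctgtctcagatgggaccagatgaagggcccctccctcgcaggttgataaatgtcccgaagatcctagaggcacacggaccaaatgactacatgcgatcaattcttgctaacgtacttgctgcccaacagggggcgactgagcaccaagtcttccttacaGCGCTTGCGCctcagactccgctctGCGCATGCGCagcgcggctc
Cox6a1: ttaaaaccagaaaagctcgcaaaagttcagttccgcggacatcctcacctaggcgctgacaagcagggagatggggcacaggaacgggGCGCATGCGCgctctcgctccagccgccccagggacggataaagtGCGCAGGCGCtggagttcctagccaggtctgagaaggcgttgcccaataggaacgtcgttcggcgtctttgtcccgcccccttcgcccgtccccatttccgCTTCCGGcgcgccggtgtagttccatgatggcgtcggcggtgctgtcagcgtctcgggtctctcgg
Ndufs6: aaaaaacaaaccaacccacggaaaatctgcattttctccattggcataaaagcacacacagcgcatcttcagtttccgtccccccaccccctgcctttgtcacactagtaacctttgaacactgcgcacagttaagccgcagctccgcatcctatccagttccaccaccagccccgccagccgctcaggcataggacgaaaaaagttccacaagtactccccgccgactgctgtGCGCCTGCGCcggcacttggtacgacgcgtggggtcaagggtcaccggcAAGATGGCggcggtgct
Ndufa13: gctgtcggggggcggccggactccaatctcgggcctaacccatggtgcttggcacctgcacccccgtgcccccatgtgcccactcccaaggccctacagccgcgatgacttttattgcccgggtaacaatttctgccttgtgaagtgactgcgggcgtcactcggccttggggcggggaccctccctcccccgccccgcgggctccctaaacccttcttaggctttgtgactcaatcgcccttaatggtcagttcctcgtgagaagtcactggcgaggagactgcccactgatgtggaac

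Sdha held 3 matches to the NRF1 motif, Uqcrc1 held 2, Cox6a1 held 2 and 1 to the ETS motif, and Ndufs6 held 1 to the NRF1 and 1 to the YY1 motif, while Ndufa13 had none of these letters in its window. RefSeq promoters were found for 67 of the 81 genes. The NRF1 motif was present in 17 of the 67 (25.4%), against 5.19% of the 27025 genes with a promoter and 10.9% of the tested genes. For the ETS motif the count was 16 (23.9%), against 9.93% of all and 19.0% of tested genes, and for YY1 it was 10 (14.9%), against 3.19% and 4.93%. In all, 37 of the 67 promoters (55.2%) held at least 1 of the 3 motifs, against 30.7% of the tested genes. Of the 29 genes with a promoter that were called lower in dKO against WT, 7 held the NRF1, 6 the ETS and 6 the YY1 motif. The 38 other oxidative phosphorylation genes with a promoter held them in 10, 10 and 4 cases. A match describes these letters and is not evidence of a bound site.

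Few of these genes lay near a Suz12 peak. Suz12 is the PRC2 subunit whose binding was mapped by chromatin immunoprecipitation in wild-type 129B6F1 ES cells, and the authors' list holds 7480 peaks on mm10 with no score. A peak overlapped the gene or the 1 kb on either side of it for 1 of the 81 genes (1.23%), against 31.5% of 14101 tested genes that could be placed. That gene was Ndufa13, which encodes an accessory subunit of complex I also known as GRIM-19. Its peak, chr8:69901960-69903379, is 1420 bp wide and covers the start of the gene and the whole promoter window printed above. The gene Tssk6 overlaps Ndufa13, so the peak cannot be assigned to either. Within 5 kb there were 4 genes with a peak, Atp5b, Ndufa13, Ndufs3 and Ndufs7 (4.94%), against 34.9% of tested genes. The peaks come from another strain than the RNA, and no comparison of binding between the RNA groups was made.

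In dKO against WT, more oxidative phosphorylation genes fell than rose. Of the 79 tested, 37 fell, 4 rose and 38 were not called. The 4 were Ndufa8, Uqcr10, Cox4i2 and Cox8c, and Cox4i2 and Cox8c passed the filter on low counts only through dKO, where they are high. Calls are those of edgeR's quasi-likelihood test, with p-values adjusted by Benjamini-Hochberg over the 14145 tested genes and a threshold of 0.05. The 37 are 46.8% of the tested oxidative phosphorylation genes, against a background of 31.0% of all tested genes called lower. The 4 are 5.06%, against 33.7% called higher. The changes were small: 3 of the 79 fell by at least 1.5-fold (3.8%), against 11.4% of all tested genes, and 2 rose by as much (2.53%), Cox4i2 and Cox8c, against 24.7%. The median log2 fold change was -0.18, with quartiles of -0.32 and -0.05, beside a median of -0.00 over all tested genes. By library, the median difference from the WT mean was -0.15, -0.18 and -0.21 in dKO and between -0.02 and 0.03 in WT, so every dKO library lay below every WT library. Without dKO replicate 3, the library that stood apart, 35 fell and 4 rose. In bulk RNA, fewer cells that express a gene and less RNA per cell cannot be told apart.

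How many genes were called lower depended on the scaling of the libraries. With TMM factors the 81 genes summed to 14695, 14347 and 14164 CPM in dKO and 16143, 16471 and 16535 CPM in WT, without overlap. As a share of all counts, before any scaling factor, they took 1.57%, 1.53% and 1.51% in dKO and 1.56%, 1.59% and 1.61% in WT, and there the highest dKO library exceeded the lowest WT library. Upper-quartile factors gave 9 genes higher and 25 lower of the 79, beside 37.9% and 25% of all tested genes. Total counts gave 12 higher and 15 lower, beside 41.3% and 21.1%. With total counts, the lower calls thus did not exceed the share over all tested genes. Under total counts the median of all tested genes moved to 0.13 and that of the oxidative phosphorylation genes to -0.05. A scaling moves all genes alike, so it leaves the difference between the medians, -0.18, as it is. That difference was -0.13 with the filter at a mean of 2 CPM, -0.26 with DESeq2 and -0.26 with no filter.

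**Figure D1:**
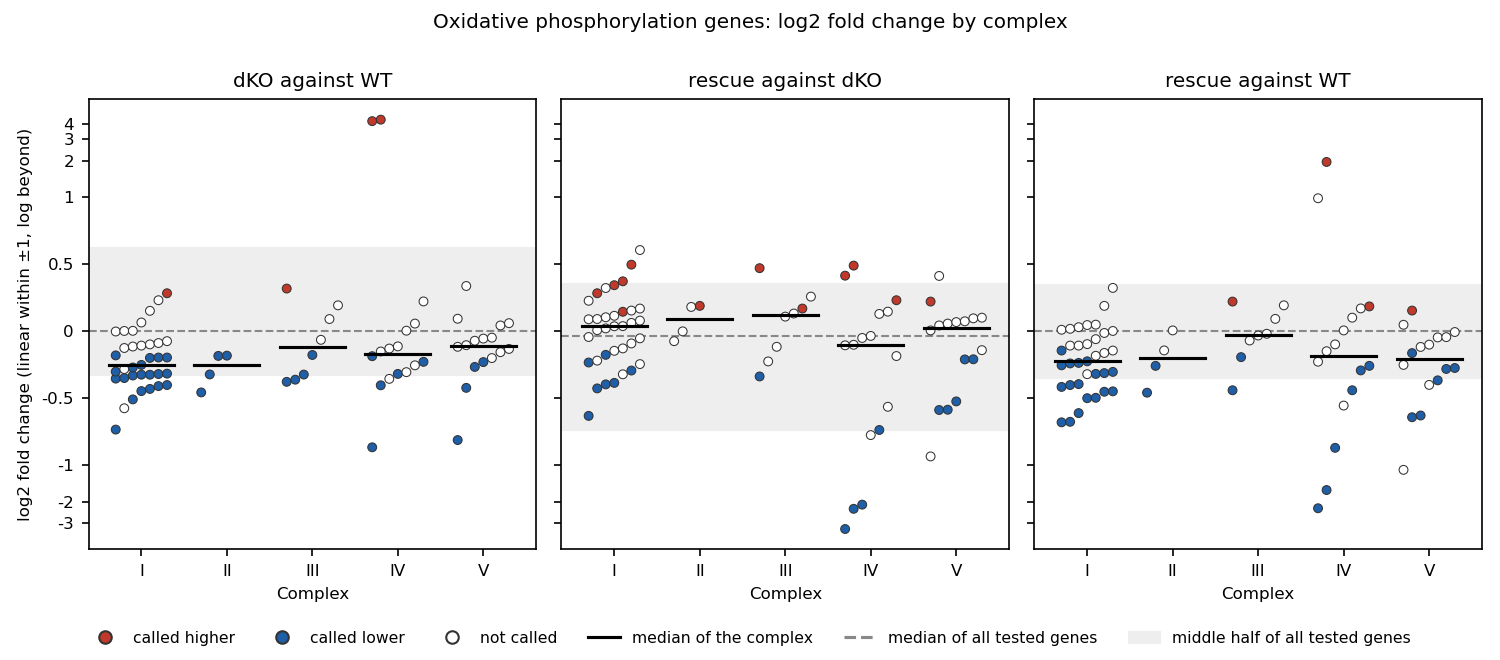
Log2 fold change of each of the 79 tested oxidative phosphorylation genes (points, vertical axis linear within ±1 and logarithmic beyond) by complex (horizontal axis) for dKO against WT, rescue against dKO and rescue against WT; red and blue points were called higher and lower, black bars are medians of a complex, and the dashed line and grey band give the median and interquartile range of all tested genes. The medians of the 5 complexes lie below 0 in dKO against WT and in rescue against WT. The largest changes are those of Cox4i2, Cox8c and Cox7b2 of complex IV, which have few counts and are not read as tests.

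Rescue cells did not differ from dKO in 1 direction. In rescue against dKO, 12 genes rose and 17 fell, and 50 were not called. These are 15.2% and 21.5% of the tested oxidative phosphorylation genes, against 32.1% of all tested genes called higher and 38.2% called lower. None of the 12 rises reached 1.5-fold, nor did any by DESeq2, against 13.5% of all tested genes, and 7 of the 79 fell by as much (8.86%), against 27.7%. Among the 7 are Cox4i2 and Cox8c, which passed the filter on low counts only through dKO, and Cox7b2, which passed it through dKO and WT. Their calls are counted here but are not read as tests. Without dKO replicate 3, 15 rose and 21 fell. The median was 0.01, with quartiles of -0.22 and 0.14, beside -0.04 over all tested genes. Upper-quartile factors gave 7 genes higher and 27 lower, beside 27.6% and 41.3% of all tested genes. The median there was -0.06, beside -0.11 over all tested genes. Total counts gave 6 higher and 33 lower, beside 23.6% and 45.1% of all tested genes, with a median of -0.13 beside -0.18. The median thus changed sign together with a shift of all genes, and under these scalings stayed 0.05 above theirs. That difference was 0.01 with the filter at a mean of 2 CPM, and 0.14 with DESeq2 and with no filter. Without the genes of chromosomes whose medians differed by over 0.1 from that of all genes, it was 0.02.

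Against WT, most called genes were lower in rescue cells too. In rescue against WT, 34 genes fell, 4 rose and 41 were not called, that is 43.0% and 5.06%, against 27.3% of all tested genes called lower and 26.8% called higher. At 1.5-fold, 8 fell (10.1%) and 1 rose (1.27%), against 13.2% and 12.2% of all tested genes. The rise was Cox4i2, on 18 summed counts in rescue and 3 in WT. The falls include Cox7b2, which passed the filter on low counts through dKO and WT. Both genes are described below without a test. The median was -0.16, beside 0.00 over all genes. Summed levels of 15208, 14573 and 14611 CPM in rescue lay below the 16143, 16471 and 16535 CPM of WT, and so did the unscaled shares, at 1.48%, 1.40% and 1.42% in rescue and 1.56%, 1.59% and 1.61% in WT. The 4 rises depended on single libraries: 1 was left without rescue replicate 1 and 2 without WT replicate 1. The 3 comparisons share libraries pairwise, so their values are given side by side and were not compared with each other.

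**Figure D2:**
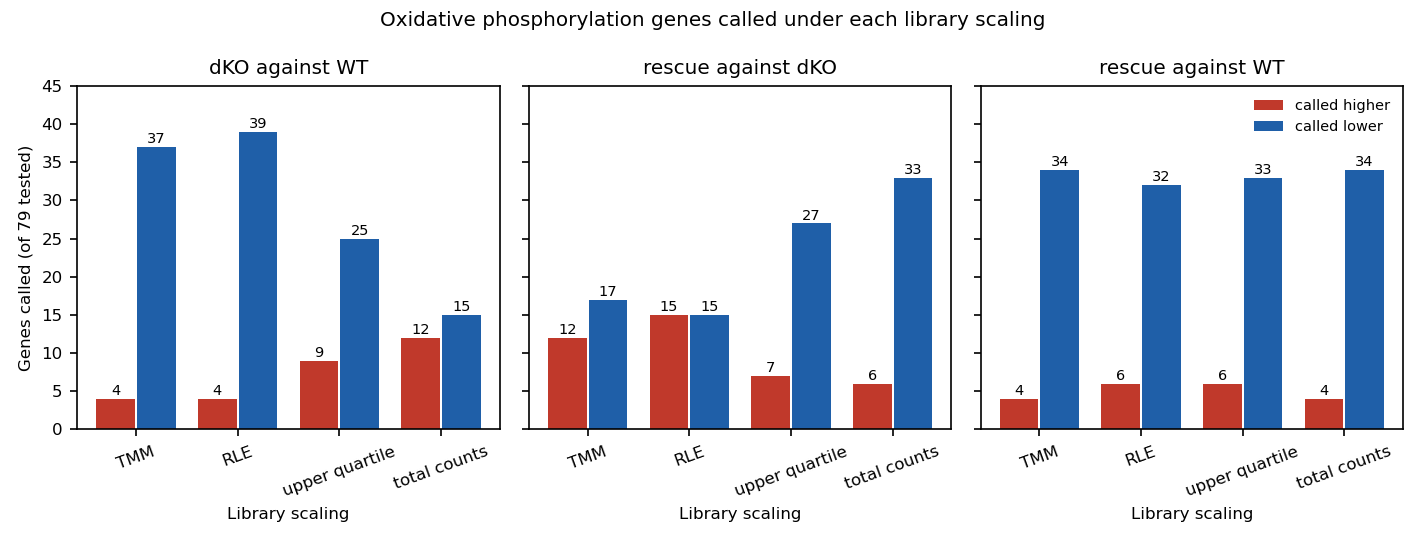
Number of the 79 tested oxidative phosphorylation genes called higher (red) and lower (blue) by edgeR under 4 ways of scaling the libraries, for each comparison. In dKO against WT the lower calls were 37 with TMM and 15 with total counts, beside 31.0% and 21.1% of all tested genes. In rescue against dKO they were 17 and 33, beside 38.2% and 45.1%. In rescue against WT they were 34 under both, beside 27.3% and 27.1%.

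**Figure D3:**
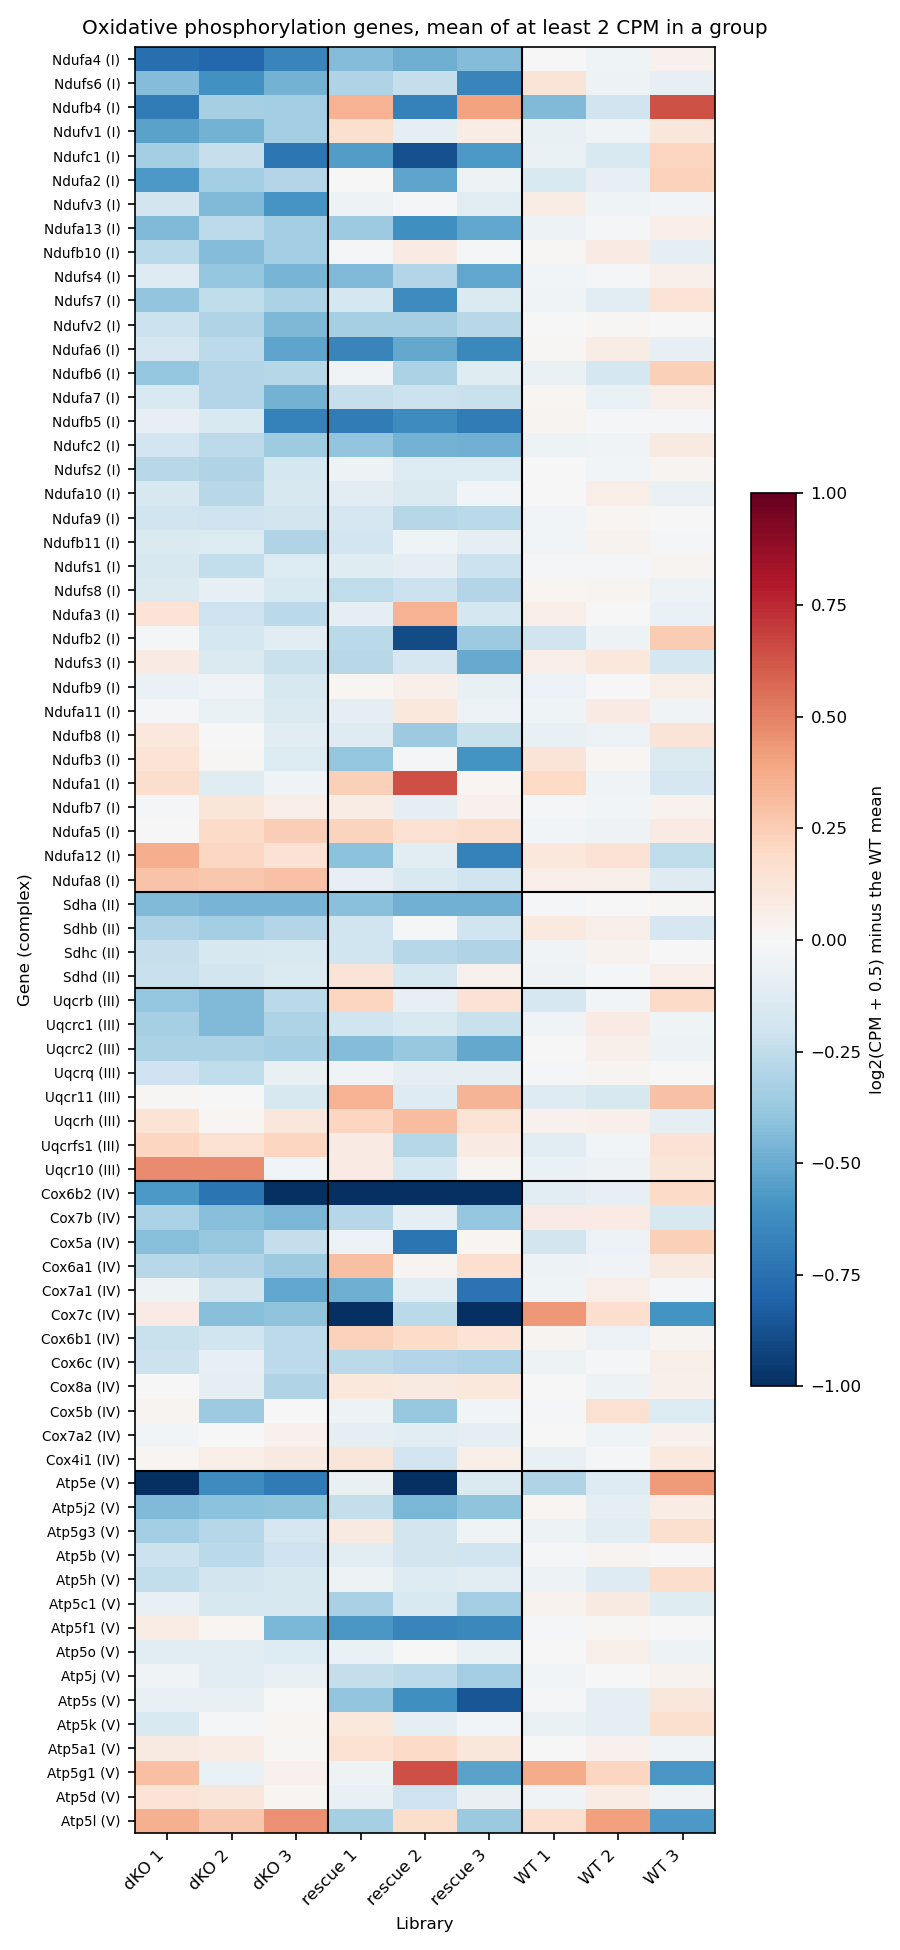
Difference of log2(CPM + 0.5) from the WT mean (colour, limited to ±1) for the 74 oxidative phosphorylation genes with a mean of at least 2 CPM in a group (vertical axis, by complex) in each of the 9 libraries (horizontal axis). Blue, for lower than WT, prevails in the dKO and rescue columns of complexes I and II, and Cox6b2 is the darkest gene of complex IV.

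Complex I, which oxidises NADH and passes its electrons to ubiquinone, had 20 of 35 tested genes lower and 1 higher in dKO against WT, with a median of -0.25. The 20 are 57.1%, beside 31.0% of all tested genes. In rescue against dKO 5 rose and 7 fell, that is 14.3% and 20%, beside 32.1% and 38.2% of all tested genes. In rescue against WT 18 fell by edgeR, that is 51.4%, beside 27.3% of all tested genes. None rose there by edgeR, beside 26.8% of all tested genes. At an unadjusted p under 0.05, 1 gene was higher in rescue against WT, and DESeq2 also called 1. Ndufa4 (chr6:11900372-11907450), named for complex I but assigned to complex IV in human cells, had 138, 135 and 147 CPM in dKO, 173, 166 and 173 CPM in rescue and 233, 226 and 241 CPM in WT. The 3 groups did not overlap, with dKO lowest and WT highest. The log2 fold change was -0.73 (SE 0.055, edgeR adjusted p = 2.95e-07) in dKO against WT, 0.28 (SE 0.054, edgeR adjusted p = 0.000574) in rescue against dKO and -0.45 (SE 0.054, edgeR adjusted p = 3.35e-05) in rescue against WT. Ndufa4 thus stood between its dKO and WT levels in rescue cells.

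Ndufv1 (chr19:4007499-4012755) encodes the flavoprotein that takes up electrons from NADH. It had 123, 129 and 141 CPM in dKO, 199, 167 and 188 CPM in rescue and 169, 174 and 194 CPM in WT. All dKO libraries lay below all others, and rescue and WT overlapped. Its change was -0.45 (SE 0.081, edgeR adjusted p = 0.000415) in dKO against WT and 0.49 (SE 0.081, edgeR adjusted p = 0.000157) in rescue against dKO, the largest called rise of complex I in that comparison, and 0.05 in rescue against WT, which was not called. Its partners in the same module, Ndufv2 and Ndufv3, were named after their values were seen. Ndufv3 fell by 0.40 in dKO against WT and rose by 0.34 in rescue against dKO, a call lost under total counts (edgeR adjusted p = 0.058). Ndufv2 fell by 0.32 in dKO against WT and by 0.31 in rescue against WT, with 0.01 in rescue against dKO.

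Ndufa8 (chr2:36036324-36049338), an accessory subunit, was the only complex I gene called higher in dKO against WT. It had 66.4, 65.5 and 66.8 CPM in dKO, 51.4, 48.8 and 47.4 CPM in rescue and 57.0, 56.7 and 49.8 CPM in WT, with every dKO library above all others and rescue overlapping WT. It rose by 0.28 (SE 0.069, edgeR adjusted p = 0.00348) in dKO against WT and changed by -0.43 (SE 0.069, edgeR adjusted p = 0.000144) in rescue against dKO. Ndufa12, another accessory subunit, had the largest called fall of complex I in rescue against dKO, -0.63 (SE 0.14, edgeR adjusted p = 0.00159), with 24.0, 29.6 and 19.9 CPM in rescue and 41.4, 37.1 and 35.6 CPM in dKO. Ndufa12 in rescue against WT, at -0.40 (SE 0.14, edgeR adjusted p = 0.0303), lost its call in 6 of 18 alternatives, with an edgeR adjusted p of up to 0.123, among them each of WT replicates 1 and 2, rescue replicates 1 and 3 and dKO replicate 3 left out. RefSeq also lists an Ndufa12 pseudogene. Ndufa13, the gene with the Suz12 peak, had 88.2, 100 and 94.0 CPM in dKO, 92.8, 78.2 and 83.7 CPM in rescue and 116, 118 and 126 CPM in WT. Ndufa13 was lower in all dKO and all rescue libraries than in any WT library, by -0.35 (SE 0.074, edgeR adjusted p = 0.00133) in dKO against WT and -0.50 (SE 0.074, edgeR adjusted p = 0.000166) in rescue against WT. Tssk6, the gene that overlaps Ndufa13, averaged 0.462 ± 0.142 CPM in dKO, 0.733 ± 0.278 CPM in rescue and 0.659 ± 0.355 CPM in WT (SD, n = 3 each). Ndufs6 (chr13:73319876-73328482), an iron-sulfur protein fraction subunit whose promoter holds an NRF1 and a YY1 match, fell by 0.51 in dKO against WT, with 41.3, 36.6 and 40.1 CPM in dKO and 61.2, 53.9 and 52.9 CPM in WT.

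Complex II, succinate dehydrogenase, links the tricarboxylic acid (TCA) cycle to the respiratory chain and is encoded entirely in the nucleus. All 4 of its genes fell in dKO against WT, by a median of -0.25, beside 31.0% of all tested genes called lower. None of the 4 rose at an unadjusted p under 0.05 or by DESeq2. Sdha (chr13:74322255-74350240), the flavoprotein that oxidises succinate, had 446, 440.0 and 439.8 CPM in dKO, 454, 435 and 435 CPM in rescue and 599.5, 608 and 612 CPM in WT. The dKO and rescue libraries overlapped, and all 6 lay far below the WT libraries. The change was -0.46 (SE 0.047, edgeR adjusted p = 4.23e-06) in dKO against WT and -0.46 (SE 0.047, edgeR adjusted p = 9.52e-06) in rescue against WT, and in rescue against dKO it was -0.002, not called.

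Sdhb, the iron-sulfur subunit, averaged 151 ± 3.06 CPM in dKO, 171 ± 12.9 CPM in rescue and 189 ± 18.5 CPM in WT (SD, n = 3 each), and its log2 fold change in dKO against WT was -0.32 (SE 0.077, edgeR adjusted p = 0.00286). Sdhc and Sdhd anchor the enzyme in the membrane. Sdhc averaged 185 ± 5.51 CPM in dKO, 176 ± 6.67 CPM in rescue and 211 ± 4.97 CPM in WT (SD, n = 3 each), with changes of -0.18 (SE 0.053, edgeR adjusted p = 0.00909) in dKO against WT and -0.26 (SE 0.053, edgeR adjusted p = 0.00151) in rescue against WT. Its dKO call was lost with upper-quartile factors, total counts and a filter at a mean of 2 CPM. Sdhd averaged 190.0 ± 5.27 CPM in dKO, 216 ± 23.4 CPM in rescue and 216 ± 8.92 CPM in WT (SD, n = 3 each). Its changes of -0.18 (SE 0.075, edgeR adjusted p = 0.0485) in dKO against WT and 0.19 (SE 0.075, edgeR adjusted p = 0.0399) in rescue against dKO each lost the call in 9 of 18 alternatives, with edgeR adjusted p-values of up to 0.622 and 0.552. Leaving out any WT library, dKO replicate 1 or 2, or rescue replicate 3 ended the first call. Leaving out WT replicate 2, dKO replicate 1 or 2, or rescue replicate 1 or 3 ended the second.

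Complex III, which moves electrons from ubiquinol to cytochrome c, had 4 of 8 genes lower and 1 higher in dKO against WT, 2 higher and 1 lower in rescue against dKO, and 1 higher and 2 lower in rescue against WT. The lower and higher calls in dKO against WT stand beside 31.0% and 33.7% of all tested genes. In rescue against dKO 25% were higher and 12.5% lower, beside 32.1% and 38.2%, and in rescue against WT 12.5% higher and 25% lower, beside 26.8% and 27.3%. Both core protein genes were lower in dKO against WT. Uqcrc1 (chr9:108936648-108949641), with its 2 NRF1 matches, had 434, 403 and 441 CPM in dKO, 475, 491 and 469 CPM in rescue and 532, 579 and 531 CPM in WT. The groups did not overlap, and rescue lay between. The change was -0.36 (SE 0.057, edgeR adjusted p = 0.000145) in dKO against WT, 0.17 (SE 0.057, edgeR adjusted p = 0.0197) in rescue against dKO and -0.19 (SE 0.057, edgeR adjusted p = 0.0126) in rescue against WT. The call in rescue against dKO was lost with upper-quartile factors, total counts and the filter at a mean of 2 CPM, and without dKO replicate 2 or rescue replicate 2, and that in rescue against WT without WT replicate 2 or rescue replicate 3.

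Uqcrc2 (chr7:120635189-120659523) had 341, 341 and 339 CPM in dKO, 316, 328 and 298 CPM in rescue and 428, 440.5 and 410.2 CPM in WT, with rescue lowest and no overlap. It changed by -0.32 (SE 0.054, edgeR adjusted p = 0.000213) in dKO against WT and -0.44 (SE 0.054, edgeR adjusted p = 3.72e-05) in rescue against WT. Uqcrb, a small subunit near the ubiquinone site, had 35.7, 34.3 and 38.8 CPM in dKO, 54.5, 44.3 and 51.8 CPM in rescue and 41.6, 46.1 and 53.7 CPM in WT. Only the dKO libraries stood apart, with -0.38 (SE 0.10, edgeR adjusted p = 0.00727) in dKO against WT and 0.47 (SE 0.10, edgeR adjusted p = 0.00151) in rescue against dKO, and the call against WT was lost under total counts, at an adjusted p of 0.0685. Uqcr10 was the gene called higher in dKO against WT, but it rested on 2 of 3 libraries: it had 183, 183 and 129 CPM in dKO and 126, 127 and 144 CPM in WT. Its change of 0.32 (SE 0.12, edgeR adjusted p = 0.0393) lost the call in 8 of 18 alternatives, with an edgeR adjusted p of up to 0.15, among them WT replicate 1 or 2, dKO replicate 1 or 2, or rescue replicate 3 left out. Uqcrh, the hinge protein, rose by 0.22 (SE 0.064, edgeR adjusted p = 0.0125) in rescue against WT and lost the call without WT replicate 3, at an adjusted p of 0.0567.

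Complex IV, cytochrome c oxidase, held the largest fitted changes among these genes, in the isoform genes Cox4i2, Cox8c and Cox7b2. Those have few counts and passed the filter only through the groups where they are high. Apart from them, the largest change in dKO against WT was that of Cox6b2, at -0.87, with Atp5e of complex V next, at -0.81. Of 16 tested genes, 5 fell and 2 rose in dKO against WT, 3 rose and 4 fell in rescue against dKO, and 2 rose and 6 fell in rescue against WT. The 5 falls in dKO are 31.2%, beside 31.0% of all tested genes. In rescue the falls are 25% against dKO and 37.5% against WT, beside 38.2% and 27.3%. Those against dKO include Cox4i2, Cox8c and Cox7b2. Against WT the falls include Cox7b2 and the rises Cox4i2. The 2 rises in dKO were Cox4i2 and Cox8c, which passed the filter only through the dKO libraries. A difference was thus a condition of their being tested, so they are described without a test. Cox4i2 (chr2:152753916-152765039), the isoform of subunit 4 known from lung, had 16, 29 and 24 counts in dKO, 10, 4 and 4 counts in rescue and 0, 2 and 1 counts in WT. Those are 1.21, 1.24 and 0.958 CPM in dKO, 0.286, 0.187 and 0.173 CPM in rescue and 0, 0.0932 and 0.0516 CPM in WT. The groups did not overlap. The ratio of summed counts was 20.6 in dKO against WT (exact 95% interval 6.77 to 102), 0.203 in rescue against dKO (0.113 to 0.344) and 4.18 in rescue against WT (1.22 to 22.1), counting error only. The intervals leave out the filter and the spread between libraries, so they are not read as tests.

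Cox4i2 overlaps Bcl2l1 in the annotation, and the libraries do not mark strand. Bcl2l1 averaged 67.9 ± 0.854 CPM in dKO, 77.3 ± 1.32 CPM in rescue and 59.3 ± 2.62 CPM in WT (SD, n = 3 each). Bcl2l1 was called higher in dKO against WT, at 0.19 (edgeR adjusted p = 0.0117), and in rescue against WT, at 0.38 (edgeR adjusted p = 0.000193). Its part in the Cox4i2 counts was not tested. Cox8c (chr12:102899306-102900534), the testis isoform of subunit 8, had 18, 34 and 23 counts in dKO, 4, 3 and 2 counts in rescue and 0, 0 and 3 counts in WT. Every dKO library lay above all others, and rescue and WT overlapped. Its ratio was 22.4 in dKO against WT (exact 95% interval 7.38 to 111) and 0.0932 in rescue against dKO (0.0410 to 0.187). In rescue against WT it was 2.09 (0.521 to 12). The intervals of Cox8c have the same limits and are not read as tests either. With the 2 genes near 0 in WT, their fitted fold changes depend on the prior count and are not given.

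Further testis isoforms, Cox6b2 and Cox7b2, were lowest in rescue. Cox6b2 (chr7:4751792-4753094), of subunit 6b, had 52.2, 46.8 and 30.6 CPM in dKO, 28.6, 22.4 and 25.9 CPM in rescue and 72.3, 73.4 and 88.7 CPM in WT. No 2 groups overlapped: WT was highest and rescue lowest. Its change was -0.87 (SE 0.17, edgeR adjusted p = 0.000832) in dKO against WT, -0.74 (SE 0.17, edgeR adjusted p = 0.00251) in rescue against dKO and -1.60 (SE 0.17, edgeR adjusted p = 1.93e-05) in rescue against WT. Cox7b2 (chr5:71442823-71548205), of subunit 7b, had 0.979, 0.597 and 1.12 CPM in dKO, 0.200, 0.140 and 0.259 CPM in rescue and 0.895, 0.979 and 1.08 CPM in WT. Those rest on 13, 14 and 28 counts in dKO, 7, 3 and 6 counts in rescue and 13, 21 and 21 counts in WT. Every rescue library lay below all others, and dKO and WT overlapped. Cox7b2 passed the filter through the dKO and WT libraries, so no test against rescue is given. Of 6 germline markers, 5 rose and 1 fell in dKO against WT, beside 33.7% and 31.0% of all tested genes. Their summed levels were 303 to 373 CPM in dKO, 75.4 to 87.7 CPM in rescue and 115 to 131 CPM in WT. The part of germline cells in the isoform values was not tested.

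The tested heart and muscle isoforms, Cox6a2 and Cox7a1, were not called in dKO against WT. Cox6a2 averaged 1.06 ± 0.440 CPM in dKO, 0.606 ± 0.0789 CPM in rescue and 0.903 ± 0.313 CPM in WT (SD, n = 3 each) and was not called in any comparison. Cox8b had 2 counts, both in WT. Cox7a1 averaged 20.1 ± 3.29 CPM in dKO, 17.6 ± 3.96 CPM in rescue and 23.8 ± 1.00 CPM in WT (SD, n = 3 each), and its change of -0.44 (SE 0.15, edgeR adjusted p = 0.0285) in rescue against WT lost the call without any 1 of the 3 WT libraries or without rescue replicate 1 or 3. Of 11 heart and muscle markers 5 could be tested, of which 3 rose and 1 fell in dKO against WT, beside 33.7% and 31.0% of all tested genes. Their summed levels were 15.4 to 17.4 CPM in dKO, 7.09 to 7.84 CPM in rescue and 7.18 to 7.85 CPM in WT. The fall was Ryr2, a call lost in 8 of 18 alternatives, and Tnnt2 was not called in that comparison. Actc1 and Myh7 had no counts in WT, and Myh6 averaged 5.91 ± 0.806 CPM in dKO and 0.0622 ± 0.108 CPM in WT (SD, n = 3 each). Markers at or near 0 in WT could pass the filter on low counts only through other groups, so their rises are not read as tests. The part of heart and muscle cells in the isoform values was not tested.

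Of the isoforms used in most tissues, Cox6b1 moved less than Cox6b2 in each comparison. Cox4i1 and Cox8a are not set against Cox4i2 and Cox8c, which passed the filter on low counts only through dKO. Cox6a1, unlike Cox6a2, was called in dKO against WT and in rescue against dKO. Cox4i1 was not called in any comparison, at 414 ± 9.57 CPM in dKO, 399.8 ± 45.1 CPM in rescue and 398 ± 24.5 CPM in WT (SD, n = 3 each). Cox6a1 (chr5:115345652-115348958) had 193, 190.1 and 182 CPM in dKO, 289, 239.8 and 264 CPM in rescue and 226, 229 and 250.2 CPM in WT, with dKO lowest and rescue overlapping WT. It changed by -0.32 (SE 0.072, edgeR adjusted p = 0.00198) in dKO against WT and 0.49 (SE 0.072, edgeR adjusted p = 6.77e-05) in rescue against dKO. Cox6b1 had 181, 184 and 177 CPM in dKO, 248, 241 and 232 CPM in rescue and 216, 203 and 216 CPM in WT. In Cox6b1 the groups did not overlap and rescue was highest, with -0.23 (SE 0.053, edgeR adjusted p = 0.00240) in dKO against WT, 0.41 (SE 0.053, edgeR adjusted p = 2.25e-05) in rescue against dKO and 0.18 (SE 0.053, edgeR adjusted p = 0.0113) in rescue against WT. The first call was lost under total counts, at an adjusted p of 0.151, and the last without WT replicate 2 or rescue replicate 1. Cox8a rose by 0.23 (SE 0.071, edgeR adjusted p = 0.0119) in rescue against dKO, a call lost with upper-quartile factors and total counts, and Cox7a2 was not called in any comparison.

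**Figure D4:**
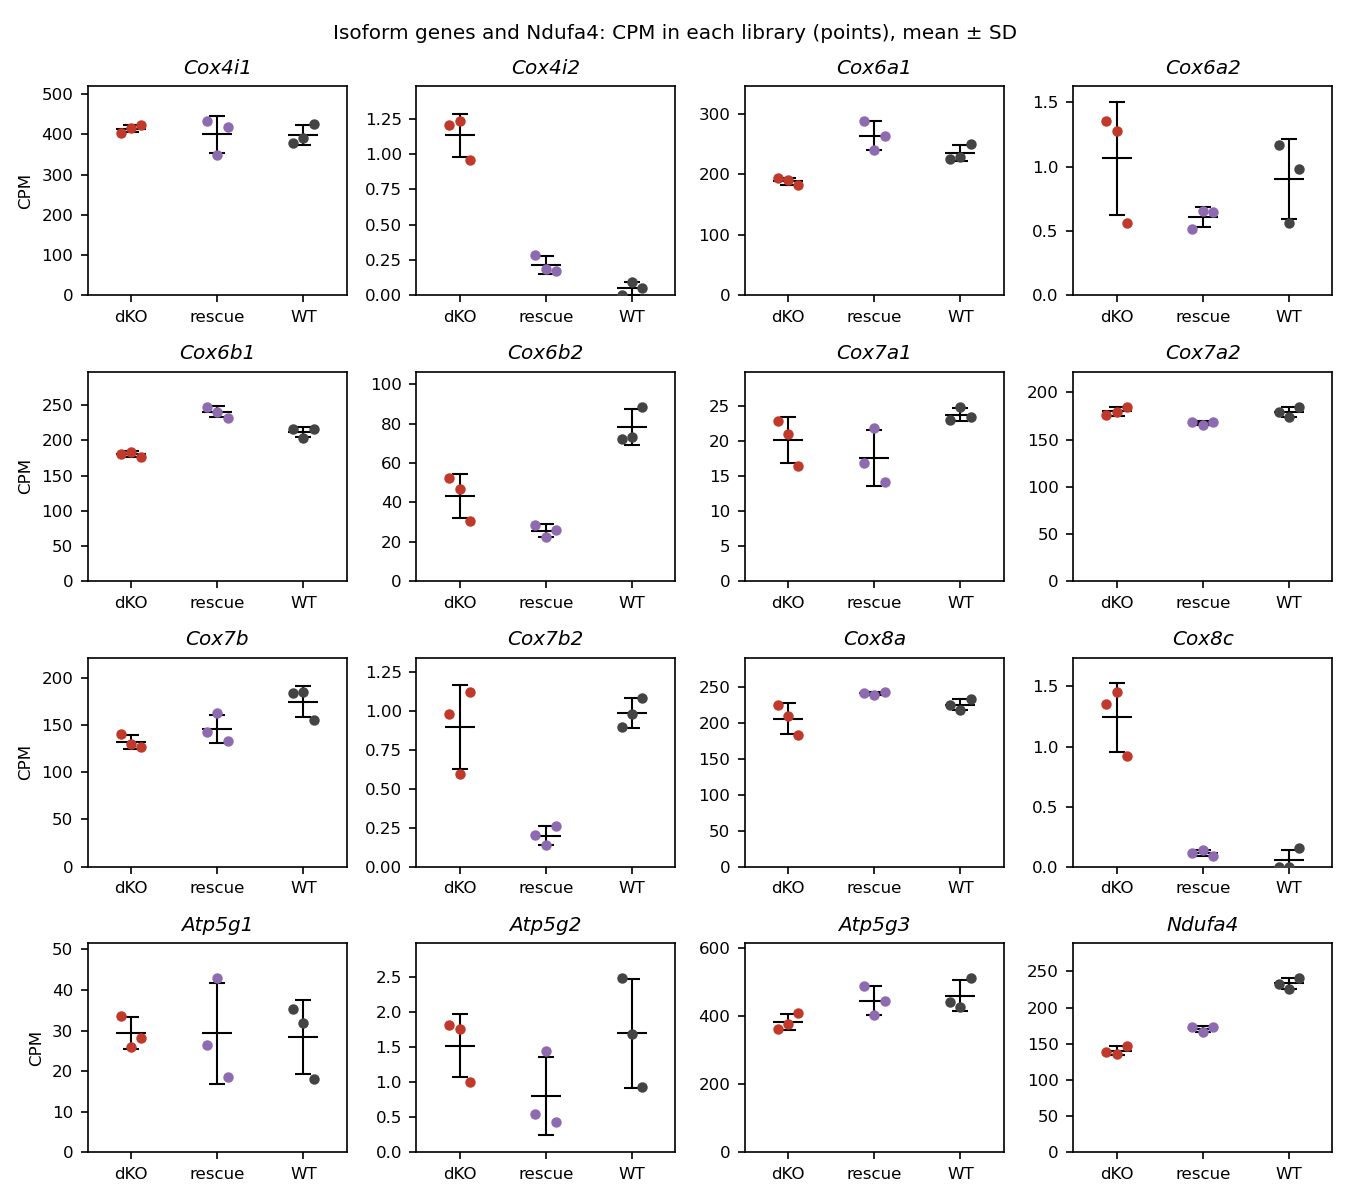
CPM of 15 genes of isoform pairs or groups and of Ndufa4 in each library (points; vertical axes start at 0 and differ between panels), with the mean and SD of 3 libraries for dKO, rescue and WT from left to right. Cox4i2 and Cox8c are high in dKO alone, Cox7b2 is low in rescue alone, and Cox6b2 falls below its WT level in both dKO and rescue.

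In complex V, the ATP synthase, 4 of 16 genes fell in dKO against WT and none rose, by edgeR, at an unadjusted p under 0.05 or by DESeq2. The 4 are 25%, beside 31.0% of all tested genes. In rescue against dKO 1 rose and 5 fell (31.2%, beside 38.2%), and in rescue against WT 1 rose and 6 fell (37.5%, beside 27.3%). The catalytic head is built from alpha and beta subunits. Atp5b, the beta subunit, averaged 2987 ± 65.7 CPM in dKO, 3128 ± 99.8 CPM in rescue and 3504 ± 57.4 CPM in WT (SD, n = 3 each), and fell by 0.23 in dKO against WT. That call was lost under total counts, at -0.09 (edgeR adjusted p = 0.0974). Atp5b was named after its values were seen. Atp5a1 (chr18:77773768-77782869), the alpha subunit, had 1955, 1925 and 1848 CPM in dKO, 2033, 2098 and 1986 CPM in rescue and 1826, 1889 and 1784 CPM in WT, with rescue highest and dKO overlapping WT. Atp5a1 changed by 0.15 (SE 0.049, edgeR adjusted p = 0.0199) in rescue against WT, and the call ended without WT replicate 1, WT replicate 3, rescue replicate 1 or rescue replicate 2. The 50 tested genes nearest to Atp5a1 had medians of 0.47 in dKO against WT and 0.49 in rescue against WT.

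Among the other complex V genes, Atp5j2 (subunit f) had 86.0, 87.8 and 88.4 CPM in dKO, 99.0, 85.0 and 88.5 CPM in rescue and 119, 109.6 and 124 CPM in WT, and every WT library lay above all others. It changed by -0.42 (SE 0.070, edgeR adjusted p = 0.000211) in dKO against WT and -0.37 (SE 0.070, edgeR adjusted p = 0.000902) in rescue against WT. Atp5s, coupling factor B, which RefSeq lists as Dmac2l, had 8.81, 8.83 and 9.30 CPM in dKO, 6.97, 5.93 and 4.93 CPM in rescue and 9.23, 8.67 and 10.2 CPM in WT. It was low in rescue alone, by -0.59 (SE 0.13, edgeR adjusted p = 0.00181) in rescue against dKO and -0.64 (SE 0.13, edgeR adjusted p = 0.00165) in rescue against WT. Atp5e, the epsilon subunit, had the largest called fall of complex V in dKO against WT, -0.81 (SE 0.28, edgeR adjusted p = 0.0313), but lost the call in 6 of 18 alternatives, with an edgeR adjusted p of up to 0.121, among them any dKO library or WT replicate 3 left out. The 3 genes Atp5g1, Atp5g2 and Atp5g3 encode the same mature subunit c. Atp5g3 changed by -0.27 (SE 0.086, edgeR adjusted p = 0.0164) in dKO against WT and 0.22 (SE 0.086, edgeR adjusted p = 0.0369) in rescue against dKO, calls lost in 5 and 7 of 18 alternatives, while Atp5g1 and Atp5g2 were not called in any comparison.

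In the 3 genes on chromosome 3, libraries split as they did over that chromosome as a whole. The median of 648 other tested genes there, relative to the WT mean, was 0.12, 0.12 and -0.32 in dKO replicates 1, 2 and 3, and -0.38, -0.36 and -0.40 in rescue. Against this, Atp5f1 (subunit b of the ATP synthase stator, chr3:105942698-105959263) stood at 0.07, 0.02 and -0.46 in dKO and -0.58, -0.66 and -0.64 in rescue. The complex I accessory subunit gene Ndufb5 (chr3:32737057-32751559) stood at -0.08, -0.15 and -0.67 in dKO and -0.70, -0.63 and -0.70 in rescue. Ndufc1 (chr3:51405479-51408955), another accessory subunit, stood at -0.34, -0.23 and -0.72 in dKO and -0.56, -0.88 and -0.58 in rescue. In each of the 3 genes, dKO replicate 3 lay below the other 2 dKO libraries and nearer to the rescue libraries.

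Their calls depended on dKO replicate 3 in part. Atp5f1 was not called in dKO against WT, at -0.10, and changed by -0.52 (SE 0.11, edgeR adjusted p = 0.00103) in rescue against dKO and -0.63 (SE 0.11, edgeR adjusted p = 0.000513) in rescue against WT. Ndufb5 was not called in dKO against WT, at -0.28 (SE 0.12, edgeR adjusted p = 0.0542), and without dKO replicate 3 it was called, at a smaller -0.12 (edgeR adjusted p = 0.0382). Ndufc1 lost its call in dKO against WT without that library, at -0.30 (edgeR adjusted p = 0.058), against -0.43 (SE 0.14, edgeR adjusted p = 0.0155) with it, and also without WT replicate 3. In rescue against WT, Ndufb5 was the largest called fall of complex I, at -0.68 (SE 0.12, edgeR adjusted p = 0.000574), and Ndufc1 followed, at -0.68 (SE 0.14, edgeR adjusted p = 0.00144). The 50 tested genes nearest to each gene had medians of -0.49, -0.44 and -0.42 in that comparison for Atp5f1, Ndufb5 and Ndufc1. The part of the difference over the whole chromosome in these values was not tested. Without the genes of the chromosomes whose medians differed by over 0.1, the counts were 4 genes higher and 35 lower in rescue against WT, and 10 higher and 21 lower in rescue against dKO.

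**Figure D5:**
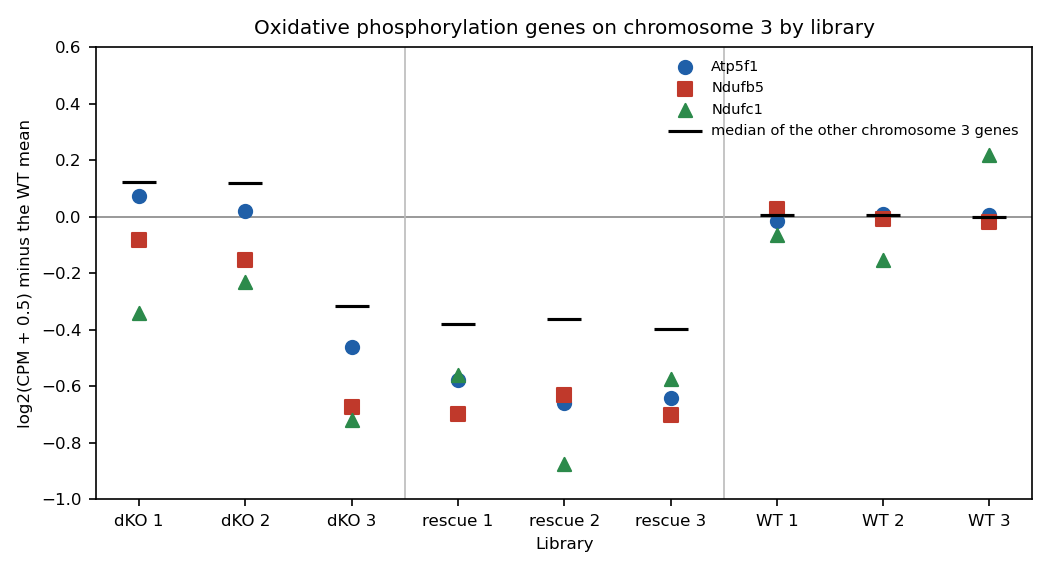
Difference of log2(CPM + 0.5) from the WT mean (vertical axis) for Atp5f1, Ndufb5 and Ndufc1 (symbols) and the median of 648 other tested chromosome 3 genes (bars) in each library (horizontal axis). In dKO replicate 3 and the 3 rescue libraries the chromosome median lies between -0.40 and -0.32, and all 3 genes lie below it.

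Most of these genes were measured closely. For the 74 with a mean of at least 2 CPM in a group, the coefficient of variation between replicates, averaged over the 3 groups, had a median of 6.42%, was under 10% in 54 genes and exceeded 20% in 5: Ndufb4, Cox7c, Atp5g1, Atp5e and Atp5l. Ndufb4 had 6.77, 3.08 and 7.05 CPM in rescue and 3.72, 4.48 and 8.40 CPM in WT, so rescue replicate 2 was low and WT replicate 3 high. Cox7c had 10.3, 17.3 and 8.47 CPM in rescue and 28.5, 23.6 and 13.7 CPM in WT, and Atp5g1 had 26.4, 42.9 and 18.7 CPM in rescue and 35.4, 31.8 and 18.1 CPM in WT. In both of these genes rescue replicate 2 was high and WT replicate 3 low. These 5 genes were singled out after their values were seen.

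Several of these genes have named copies elsewhere in the genome, and counts of genes with near-identical copies are uncertain. RefSeq lists copies or pseudogenes by name for 10 of the 81, among them Ndufs5, Ndufb4, Cox7c and Atp5l. Ndufs5, an accessory subunit that complex I needs, had 1 count in 9 libraries. Gapdh, an abundant housekeeping gene with many processed copies, averaged 4.30 ± 0.813 CPM in dKO, 6.22 ± 1.57 CPM in rescue and 5.38 ± 1.28 CPM in WT (SD, n = 3 each). How reads that match more than 1 place were counted is not given in the sources used here, and the part of the copies in these values was not tested. Levels are not compared between genes, since no transcript lengths were used.

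Assembly factors of complex I, which build the complex without being part of it, were mostly lower in dKO. Of 15 tested, 11 fell and 4 were not called in dKO against WT, with a median of -0.41, beside 31.0% of all tested genes called lower. In rescue against dKO 7 rose and 1 fell, beside 32.1% and 38.2% of all tested genes. In rescue against WT 1 rose and 7 fell, beside 26.8% and 27.3%. Ndufaf5 averaged 15.4 ± 1.17 CPM in dKO, 19.2 ± 1.26 CPM in rescue and 37.0 ± 2.65 CPM in WT (SD, n = 3 each), with -1.27 (SE 0.091, edgeR adjusted p = 2.13e-07) in dKO against WT and 0.32 (SE 0.092, edgeR adjusted p = 0.00737) in rescue against dKO. The call in rescue against dKO was lost under total counts, at 0.19 (edgeR adjusted p = 0.0899). Foxred1 averaged 41.5 ± 1.86 CPM in dKO, 59.6 ± 1.41 CPM in rescue and 57.4 ± 0.293 CPM in WT (SD, n = 3 each), with -0.47 (SE 0.061, edgeR adjusted p = 3.23e-05) in dKO against WT and 0.52 (SE 0.061, edgeR adjusted p = 9.89e-06) in rescue against dKO. Ndufaf7, a methyltransferase that modifies a core subunit, changed by -0.45 (SE 0.063, edgeR adjusted p = 5.11e-05) in dKO against WT. Ndufaf4 was not called in that comparison, at 0.07.

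Of 21 tested assembly and copper-delivery factors of complex IV, 8 fell and 2 rose in dKO against WT, beside 31.0% and 33.7% of all tested genes. In rescue against dKO 9 rose and 4 fell, beside 32.1% and 38.2%, and in rescue against WT 4 rose and 4 fell, beside 26.8% and 27.3%. Surf1, mutated in human Leigh syndrome, averaged 20.3 ± 1.27 CPM in dKO, 25.9 ± 2.25 CPM in rescue and 35.7 ± 1.47 CPM in WT (SD, n = 3 each), with -0.81 (SE 0.086, edgeR adjusted p = 5.24e-06) in dKO against WT. Cox20 changed by -0.96 (SE 0.13, edgeR adjusted p = 5.59e-05) in dKO against WT and 1.10 (SE 0.13, edgeR adjusted p = 1.25e-05) in rescue against dKO. Sco2 and Pet117 had no counts in any library. Of 11 assembly factors of complexes II, III and V, 3 fell and 1 rose in dKO against WT, beside the same 31.0% and 33.7%. Tmem70, which the ATP synthase needs to assemble, was the rise and was also the lowest in rescue: it averaged 59.2 ± 4.21 CPM in dKO, 19.4 ± 0.409 CPM in rescue and 43.0 ± 2.33 CPM in WT (SD, n = 3 each), with 0.46 (SE 0.073, edgeR adjusted p = 0.000153) in dKO against WT and -1.61 (SE 0.075, edgeR adjusted p = 5.81e-09) in rescue against dKO.

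Of 11 subunits and partners outside the symbol pattern, 3 fell and 2 rose in dKO against WT, beside 31.0% and 33.7% of all tested genes. Atpif1, the inhibitor of the ATP synthase, had 119, 112 and 111 CPM in dKO, 169.9, 182 and 156 CPM in rescue and 239, 223 and 235 CPM in WT. Its groups did not overlap, and it changed by -1.03 (SE 0.065, edgeR adjusted p = 7.98e-08) in dKO against WT and 0.57 (SE 0.065, edgeR adjusted p = 8.58e-06) in rescue against dKO. Ndufa4l2, the paralog of Ndufa4 known as a hypoxia-induced gene, had 4.97, 2.43 and 2.32 CPM in dKO, 2.69, 2.80 and 3.03 CPM in rescue and 1.03, 1.03 and 0.773 CPM in WT. It was lowest in the 3 WT libraries and rose by 1.71 (SE 0.31, edgeR adjusted p = 0.000470) in dKO against WT and 1.58 (SE 0.31, edgeR adjusted p = 0.00108) in rescue against WT. Cyct, the testis cytochrome c, averaged 41.5 ± 13.2 CPM in dKO, 8.55 ± 0.624 CPM in rescue and 61.1 ± 6.94 CPM in WT (SD, n = 3 each), with -2.27 (SE 0.22, edgeR adjusted p = 3.76e-06) in rescue against dKO. Cyct thus had its lowest level in rescue, as Cox6b2 and Cox7b2 did.

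Among 17 tested regulators of mitochondrial gene expression, 7 fell and 2 rose in dKO against WT, beside 31.0% and 33.7% of all tested genes. In rescue against dKO 11 rose and 2 fell, beside 32.1% and 38.2%. Nrf1, the factor whose motif was counted above, had 68.7, 63.7 and 66.4 CPM in dKO, 78.1, 89.6 and 79.3 CPM in rescue and 99.3, 96.7 and 79.2 CPM in WT, lowest in the 3 dKO libraries, with -0.47 (SE 0.089, edgeR adjusted p = 0.000597) in dKO against WT. Ppargc1b, a coactivator of mitochondrial genes, changed by -0.95 (SE 0.11, edgeR adjusted p = 1.11e-05) in dKO against WT and 0.64 (SE 0.11, edgeR adjusted p = 0.000201) in rescue against dKO. Esrra, a nuclear receptor that acts with such coactivators, went the other way, at 0.52 (SE 0.091, edgeR adjusted p = 0.000328) in dKO against WT and -0.96 (SE 0.091, edgeR adjusted p = 1.77e-06) in rescue against dKO. Tefm, the mitochondrial transcription elongation factor, fell by 0.84 in dKO against WT. Gabpa and Yy1, named with Nrf1 for the motifs counted above, were not called in that comparison, at -0.05 and -0.04.

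Pyruvate dehydrogenase and TCA cycle genes had 8 of 18 lower and 1 higher in dKO against WT and 10 lower and 3 higher in rescue against WT. Idh2, the mitochondrial NADP-dependent isocitrate dehydrogenase, averaged 281 ± 24.2 CPM in dKO, 190.5 ± 9.05 CPM in rescue and 406 ± 22.8 CPM in WT (SD, n = 3 each), with -0.53 (SE 0.072, edgeR adjusted p = 4.35e-05) in dKO against WT and -1.09 (SE 0.073, edgeR adjusted p = 4.37e-07) in rescue against WT. Glycolysis and lactate genes had 11 of 23 lower and 6 higher in dKO against WT, but 11 higher and 5 lower in rescue against dKO, and 11 higher and 4 lower in rescue against WT. Ldhb, the lactate dehydrogenase subunit typical of oxidative tissue, averaged 103 ± 15.2 CPM in dKO, 122 ± 4.55 CPM in rescue and 365 ± 15.3 CPM in WT (SD, n = 3 each), with -1.82 (SE 0.091, edgeR adjusted p = 1.17e-08) in dKO against WT. Slc16a3, a lactate exporter, rose by 1.83 (SE 0.18, edgeR adjusted p = 3.32e-06) in dKO against WT, and the glucose transporter gene Slc2a3 fell by 0.72. Of 77 genes of the mitochondrial ribosome, 26 fell and 6 rose in dKO against WT, with a median of -0.08, and 16 fell and 16 rose in rescue against WT. Over all tested genes, 31.0% were called lower and 33.7% higher in dKO against WT. The shares were 38.2% and 32.1% in rescue against dKO, and 27.3% and 26.8% in rescue against WT. These lists are read beside those shares, with no test of a list.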

How the data were processed

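The authors deposited whole-number counts of reads per gene, 1 table for each of the 9 RNA libraries, without normalization. Per the submitters' processing notes, Trimmomatic, STAR 2.4.0 and HTSeq were used with mm10, and per the labels' protocols the kit was TruSeq RNA v2, which does not mark strand, so overlapping genes cannot be told apart. The sources used here do not give the counting mode or annotation. The Suz12 file holds the authors' deposited peak coordinates and no other values, and its caller is likewise not given. The other 61 chromatin samples were not used, 2 of them with titles and antibody labels that disagree.

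Groups follow the labels. Tests used edgeR 4.0.16 in R 4.3.3 on the counts as deposited: TMM factors, filterByExpr, then glmQLFit (robust) and glmQLFTest over all 9 libraries together, with 6 residual degrees of freedom, two-sided, with Benjamini-Hochberg adjustment over 14145 genes and calls at 0.05. The SE is the log2 fold change divided by the root of the test statistic. Differences by library use log2(CPM + 0.5). A count of 0 allows up to 0.0833 to 0.241 CPM, at 3 counts, counting error only; ratios of low counts have exact 95% intervals (Clopper-Pearson). Symbols were placed on RefSeq GRCm38.p6, 22858 by symbol and 1230 by synonym, with 134 not matched, and the neighbourhood of a gene is its 50 nearest tested genes outside the set. Replicate numbers do not pair libraries: same-numbered libraries correlated at -0.11 to 0.20. Alternatives were 3 other scalings, DESeq2 1.42.0, 2 filters, fits of 2 groups, a replicate block, leaving out each library, leaving out shifted chromosomes, and stricter calls.

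The genes, lists and tests were chosen with earlier results of these data known. Genes were named by rule: per comparison and complex the called gene with the largest rise, the largest fall and the smallest adjusted p, isoform genes, genes under 2 CPM or not tested, and genes with a peak; per list, up to 3 of the smallest adjusted p and 1 not called. A gene named outside this rule belongs to a complex or chromosome given in full, or was chosen after its values were seen. RefSeq sequences are as deposited there for GRCm38.p6.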

Additional observations from a re-analysis of the deposited data

How the results depend on the processing

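For the 79 tested genes in 3 comparisons, 3866 of the single-gene results kept their side of the threshold under an alternative, 158 gained a call, 217 lost one, and 0 reversed, where a sign change was counted only if a call was involved. Of the 37 genes lower in dKO against WT, 25 kept the call whichever single library was left out and 15 did so in every alternative; of the 34 lower in rescue against WT, 22 did in both. Counts moved by more than 1.5 times as follows, and the causes were not tested beyond what the settings themselves change. The ribosomal gene Mrps21, not called at -0.01 in dKO against WT, was called at 0.22 without dKO replicate 3 and ranged from -0.18 to 0.22 with 1 library left out. For the scalings and the 1.5-fold minimum, the shares of all tested genes are given above. In dKO against WT, upper-quartile factors gave 9 higher, total counts 12 higher and 15 lower, and a 1.5-fold minimum 2 higher and 3 lower. In rescue against dKO, upper-quartile factors gave 7 higher and 27 lower, total counts 6 higher and 33 lower, an adjusted p under 0.01 gave 7 higher and 10 lower, and the 1.5-fold minimum 0 higher and 7 lower. In rescue against WT, an adjusted p under 0.01 gave 0 higher and 22 lower by edgeR, where 6 were higher at an unadjusted p under 0.05 and 3 by DESeq2 at the same threshold, and the 1.5-fold minimum gave 1 higher and 8 lower. Leaving out 1 library gave 3 to 5 higher and 29 to 38 lower in dKO against WT, 8 to 16 and 12 to 21 in rescue against dKO, and 1 to 6 and 24 to 35 in rescue against WT. With the replicate number as a block there were 3 higher and 39 lower, 12 and 22, and 4 and 35, in the same order of comparisons; the numbers are not known to pair libraries. No chromosome median differed by over 0.1 in dKO against WT, so leaving out shifted chromosomes is the same fit there. Depth limits Cox4i2, Cox8c and Cox7b2, with few counts per library. The counts at the 1.5-fold minimum include their calls.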
